A study of Mus musculus with 6 samples.

Results

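The actomyosin contractility genes *Myl9*, *Acta2*, *Tagln*, *Cnn1*, *Tpm1*, *Tpm2*, *Cald1*, *Myh9*, *Mylk* and *Actg2* were followed across 3 Sox knockouts of mouse skin keratinocytes. The 10 genes were read by 16 of the 55681 probes on the array, found through the transcript accession that the array design gives each probe, and were 10 of 21368 genes so named. *Tpm1* had 5 probes, *Tpm2* and *Cald1* had 2 each, and the other 7 genes had 1. *Myl9* was chosen by its value in Sox11 cKO cells, where it had the largest rise among the called probes, so its values in every comparison with Sox11 cKO are given as a description and were not tested. The question was whether other contractile genes moved with it.

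Primary keratinocytes from newborn pups lacked *Sox4* (Sox4 cKO), *Sox11* (Sox11 cKO) or both genes (dcKO), and each knockout was hybridised against wild-type keratinocytes on a 2-colour Agilent mouse array. There were 2 biological replicates of each genotype, 6 arrays in all, with knockout RNA in Cy5 on replicate 1 and in Cy3 on replicate 2. The strain was labelled 129SvEx:C57BL/6. Deletion was driven by a keratin 14 Cre transgene, which acts in basal epidermal cells, and the floxed line also carried a *Sox12* deletion. Whether the cells on the arrays carried that deletion is not given in the sources used here. All cultures were first grown on J2 fibroblast feeders and then passaged off them. Untreated cells in culture were compared, and no treatment or time course was applied. Separate cultures for the wild-type RNA of each array are not stated, so the spread between arrays may be partly technical.

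Non-muscle and smooth-muscle cells pull by myosin II sliding on actin filaments. *Myl9* encodes a regulatory light chain of myosin II, which Mylk phosphorylates to switch the motor on, and *Myh9* encodes the non-muscle heavy chain IIA. *Acta2* and *Actg2* encode smooth-muscle actins, *Tpm1* and *Tpm2* the tropomyosins that lie along actin, and *Cald1*, *Cnn1* and *Tagln* caldesmon, calponin and transgelin, which bind the thin filament. Many of these genes are known targets of serum response factor (SRF), which binds the CArG box together with myocardin-related cofactors when free actin runs low. In skin, keratinocytes use this machinery for adhesion, spreading and migration.

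Promoters are shown for *Myl9* and *Acta2* because these were the only member genes called in any knockout. Bases 250 to 1 before the gene start, from RefSeq on GRCm38.p6, are given on the coding strand, with CArG boxes and words 1 letter off the box in capitals. The *Myl9* stretch is chr2:156775214-156775463 on the plus strand and the *Acta2* stretch is chr19:34255374-34255623 on the minus strand.
Myl9: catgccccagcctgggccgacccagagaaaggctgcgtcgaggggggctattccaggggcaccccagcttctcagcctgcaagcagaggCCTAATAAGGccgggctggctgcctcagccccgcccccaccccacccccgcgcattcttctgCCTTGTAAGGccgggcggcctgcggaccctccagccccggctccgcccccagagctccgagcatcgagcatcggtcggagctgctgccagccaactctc
Acta2: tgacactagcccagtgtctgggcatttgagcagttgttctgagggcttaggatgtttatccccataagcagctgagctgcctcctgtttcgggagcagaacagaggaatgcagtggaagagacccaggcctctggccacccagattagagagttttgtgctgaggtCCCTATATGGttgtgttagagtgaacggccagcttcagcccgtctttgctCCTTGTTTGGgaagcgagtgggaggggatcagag

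A full CArG box stood at bases -161 to -152 of *Myl9*, and only 1.63% of the 32851 promoters in the table held one within 250 bases before to 50 after the start. *Myl9* also had a word 1 letter off at -99 to -90. *Acta2* had no full box and a pair of words 1 letter off, at -84 to -75 and at -34 to -25. Such words are common, standing in 19.9% of all promoters. *Tpm1* had 2 of them and *Cald1* had 1, while *Cnn1*, *Tpm2*, *Myh9* and *Mylk* had neither form. The Sox core words ACAAAG and ACAATG, searched on both strands, were in neither the *Myl9* nor the *Acta2* window. ACAATG occurred once in *Cnn1* and once in each of 2 *Cald1* promoters, against 12.6% of all promoters, and ACAAAG, which 18.7% of all promoters held, was in no member window. Of the members, 8 had a promoter in the table. These matches are a description of letters only.

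Between 35.1% and 45% of probes were well above background in a channel. The *Sox4* probe gave a log2 ratio (knockout over wild type) between -2.23 and -2.81 on the 4 arrays whose knockout lacked it, and the *Sox11* probe between -2.65 and -3.79 on the 4 arrays whose knockout lacked that gene, so the probes went with the labels. A probe was called when its Benjamini-Hochberg adjusted p over all probes was below 0.05 in limma's two-sided moderated test and its absolute log2 fold change was above 1.5. Errors are standard deviations over 2 arrays where marked SD, and otherwise standard errors of the fit, which pools the spread of all 6 arrays. Only 2 arrays a genotype limit the precision. In whole cultures, fewer cells of a type and less RNA per cell cannot be told apart.

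*Myl9* stood far above its wild type in Sox11 cKO and nowhere else. Its log2 ratio was 2.92 and 3.52 in the 2 Sox11 cKO replicates, a mean of 3.22 ± 0.42 (SD, n = 2) or 9.31-fold. The next largest called rise in Sox11 cKO was that of *Slc23a3*, at 2.02. In Sox4 cKO the *Myl9* ratio was -0.13 and -1.07, and in dcKO, which also lacks *Sox11*, it was -0.37 and -0.18. Neither genotype passed the test, with a log2 fold change of -0.60 ± 0.25 (limma adjusted p = 0.668) in Sox4 cKO and -0.28 ± 0.25 (limma adjusted p = 0.775) in dcKO. The difference between these 2 genotypes was 0.32 ± 0.36 (limma adjusted p = 0.812).

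The level of *Myl9* in each channel, in log2 units after scaling the arrays to each other, showed where the Sox11 cKO difference lay. Knockout RNA reached 11.47 and 12.18 on the 2 Sox11 cKO arrays, and the wild-type RNA beside it was at 8.55 and 8.66. Those wild types were near the wild types of Sox4 cKO replicate 1, at 8.54, and dcKO replicate 2, at 8.30. The wild type of dcKO replicate 1 was lower, at 7.01. On the array of Sox4 cKO replicate 2, however, wild-type *Myl9* was at 12.71 and knockout *Myl9* at 11.64, so wild-type and Sox4 cKO cells of that array held as much *Myl9* signal as the Sox11 cKO cells. The *Myl9* levels of Sox11 cKO and wild-type channels therefore overlapped over the whole series, although they were well apart within each Sox11 cKO array.

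**Figure D1:**
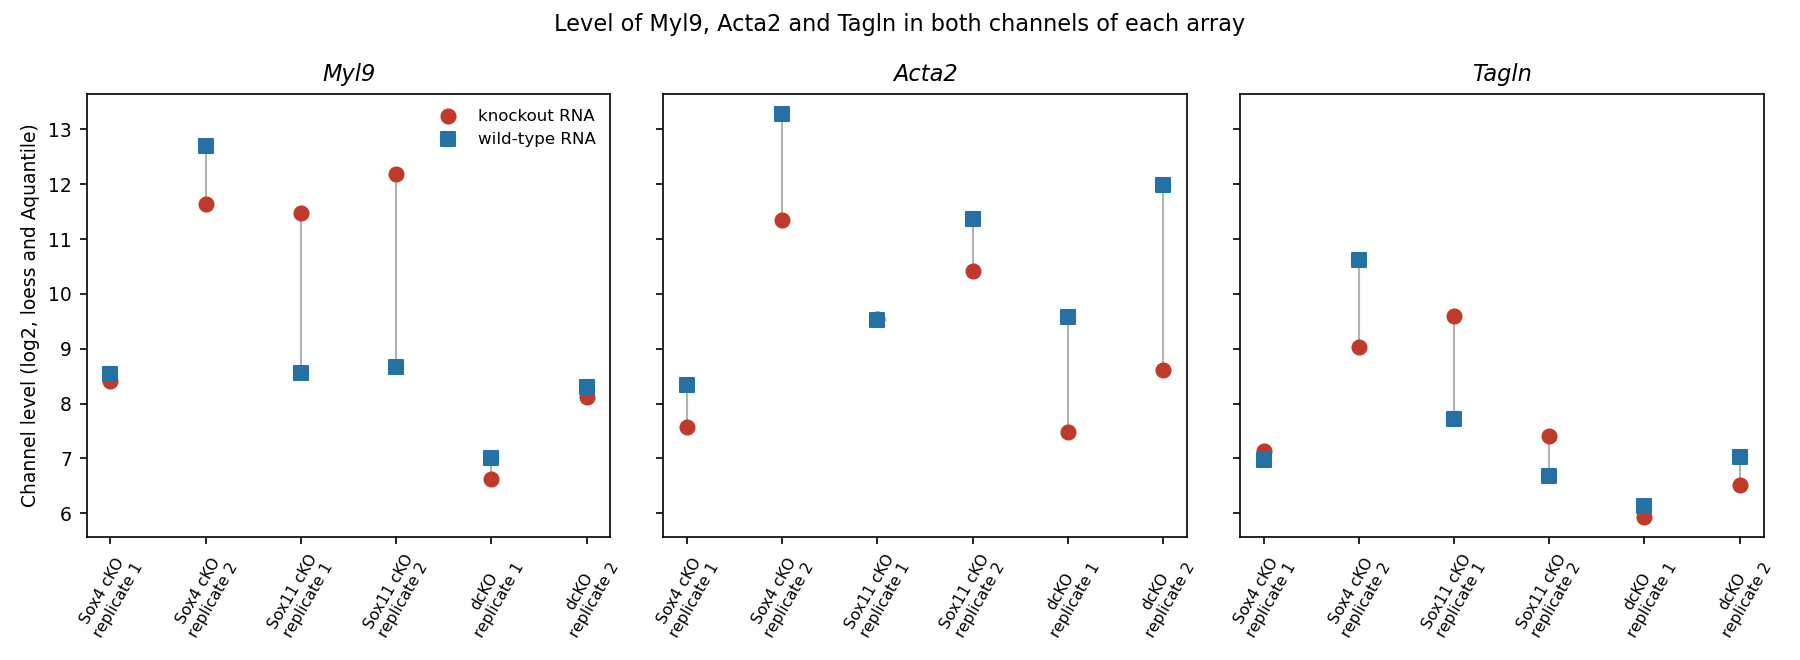
Channel level (log2, y axis) of *Myl9*, *Acta2* and *Tagln* on each of the 6 arrays (x axis), with knockout RNA as red circles, wild-type RNA as blue squares and a line joining the channels of an array. *Myl9* knockout levels of 11.47 and 12.18 in Sox11 cKO stand above their own wild types but near the 11.64 and 12.71 of Sox4 cKO replicate 2, while *Acta2* lies below its wild type on both dcKO arrays.

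*Acta2*, smooth-muscle alpha actin, was the member that fell with loss of both Sox genes. Its log2 ratio was -2.10 and -3.36 in dcKO, where the knockout levels of 7.48 and 8.62 stood against wild-type levels of 9.57 and 11.98. The fitted change was -2.73 ± 0.15, or 6.62-fold lower, with a limma adjusted p = 8e-04. In Sox4 cKO the ratio was -0.77 and -1.94, lower on both arrays, and the fitted change of -1.36 ± 0.15 had a limma adjusted p = 0.0326 but stayed under the fold threshold, so it was not called. In Sox11 cKO it was 0.02 and -0.94 (limma adjusted p = 0.499). The array carried 10 copies of the *Acta2* probe, whose ratios within an array had an SD of 0.0868 to 0.256, smaller than the gaps between replicates of each genotype.

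The *Acta2* changes differed between genotypes. The dcKO change minus that of Sox11 cKO was -2.27 ± 0.21 log2 units (limma adjusted p = 0.0122, called). Minus that of Sox4 cKO it was -1.37 ± 0.21 (limma adjusted p = 0.0423), under the fold threshold, and the adjusted p ran from 0.00599 to 0.511 over 13 alternatives. The Sox4 cKO and Sox11 cKO changes were not separated, with a difference of -0.89 ± 0.21 (limma adjusted p = 0.374). The *Acta2* call in dcKO was lost only with the scanner's processed signals, where the change was -2.90 with a limma adjusted p = 0.185, and adjusted p ranged from 8.26e-06 to 0.185 over 14 alternatives. The called difference from Sox11 cKO was kept in 8 of 13 alternatives and lost in others, among them the fit without the dye and replicate term (limma adjusted p = 0.235) and those without dcKO replicate 1 (0.0637) or dcKO replicate 2 (0.111). Without either Sox4 cKO array the adjusted p of the difference from Sox4 cKO was 0.359 and 0.262, and without either dcKO array 0.141 and 0.258.

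*Actg2*, smooth-muscle gamma actin, was dim. In Sox11 cKO its wild-type channel was not well above background on either array while the knockout channel was on both. The ratios there were 0.70 and 1.45, a fitted rise of 2.1-fold (limma adjusted p = 0.348). That value depended on the arrays kept, the fitted log2 change being 1.78 without Sox11 cKO replicate 1 and 0.36 without Sox11 cKO replicate 2. Each of these fits leaves 1 Sox11 cKO array. With offset 50 the change was 0.64. In Sox4 cKO the ratios were -0.63 and -1.70, with the highest wild-type level of the 6 arrays, 7.73, on replicate 2. In dcKO they were 0.30 and 0.02. None of the 3 genotypes was called.

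Of the thin filament binders, *Tagln* came closest to *Myl9*. The *Tagln* ratio was 1.87 and 0.72 in Sox11 cKO, 0.17 and -1.58 in Sox4 cKO, and -0.19 and -0.52 in dcKO. The Sox11 cKO change was 1.30 ± 0.23, or 2.46-fold, and did not pass (limma adjusted p = 0.15). With the authors' log2 ratios its limma adjusted p was 0.0301, under the fold threshold. The *Tagln* change in dcKO minus that in Sox11 cKO was -1.65 ± 0.33 (limma adjusted p = 0.101). In Sox4 cKO minus Sox11 cKO it was -2.00 ± 0.33 (limma adjusted p = 0.188). These differences were not called, but were in 2 and 1 of 13 alternatives, the authors' ratios in both cases (limma adjusted p = 0.0188 and 0.0348). Knockout *Tagln* was above wild type on both Sox11 cKO arrays, yet the 7.40 of knockout replicate 2 was below the 7.72 of wild-type replicate 1. *Cnn1* was near background. Its ratio was 1.30 and 0.61 in Sox11 cKO (limma adjusted p = 0.192), -0.21 and -0.02 in Sox4 cKO, and neither dcKO channel was well above background. *Cald1*, read by 2 probes, had ratios of 0.25 and 0.72 in Sox11 cKO, -0.13 and -1.03 in Sox4 cKO and -0.65 and -0.62 in dcKO for the brighter probe. The fitted *Cald1* changes in Sox4 cKO and dcKO were -0.58 ± 0.23 and -0.64 ± 0.23 (limma adjusted p = 0.646 and 0.282), and the second probe gave -0.58 and -0.60. Its Sox11 cKO ratios were -0.25 and 0.95 with the second probe, so the replicates did not share a sign there.

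The tropomyosins stayed near their wild types. The brightest *Tpm1* probe had fitted changes of 0.33, 0.31 and -0.25 in Sox4 cKO, Sox11 cKO and dcKO, and the smallest limma adjusted p of these was 0.784. All 5 *Tpm1* probes were higher in Sox11 cKO by the fit, between 0.25 and 0.49, and lower in dcKO, between -0.25 and -0.70, while in Sox4 cKO they ran from -0.48 to 0.40. Probes for different *Tpm1* transcripts therefore disagreed in Sox4 cKO, and none was called in any genotype. Both *Tpm2* probes lay between 0.03 and 0.15 in all 3 genotypes.

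The motor genes differed from *Myl9* as well. *Myh9* ratios were -1.16 and -0.92 in dcKO, the knockout levels of 13.23 and 13.49 standing below wild-type levels of 14.38 and 14.41, and the fitted change of -1.04 ± 0.20, or 2.05-fold lower, met neither the adjusted p nor the fold threshold (limma adjusted p = 0.0531). With median centring in place of loess it was -1.58 and called (limma adjusted p = 0.0132). In Sox4 cKO they were 0.55 and -0.12, and in Sox11 cKO 0.35 and -0.43, with opposite signs in the replicates of each. *Mylk*, the light chain kinase, was not well above background in any channel of any array, so neither a level nor a change could be measured. The fitted *Myh9* change in Sox11 cKO, where *Myl9* was 9.31-fold above wild type, was -0.04 ± 0.20 (limma adjusted p = 0.995).

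**Figure D2:**
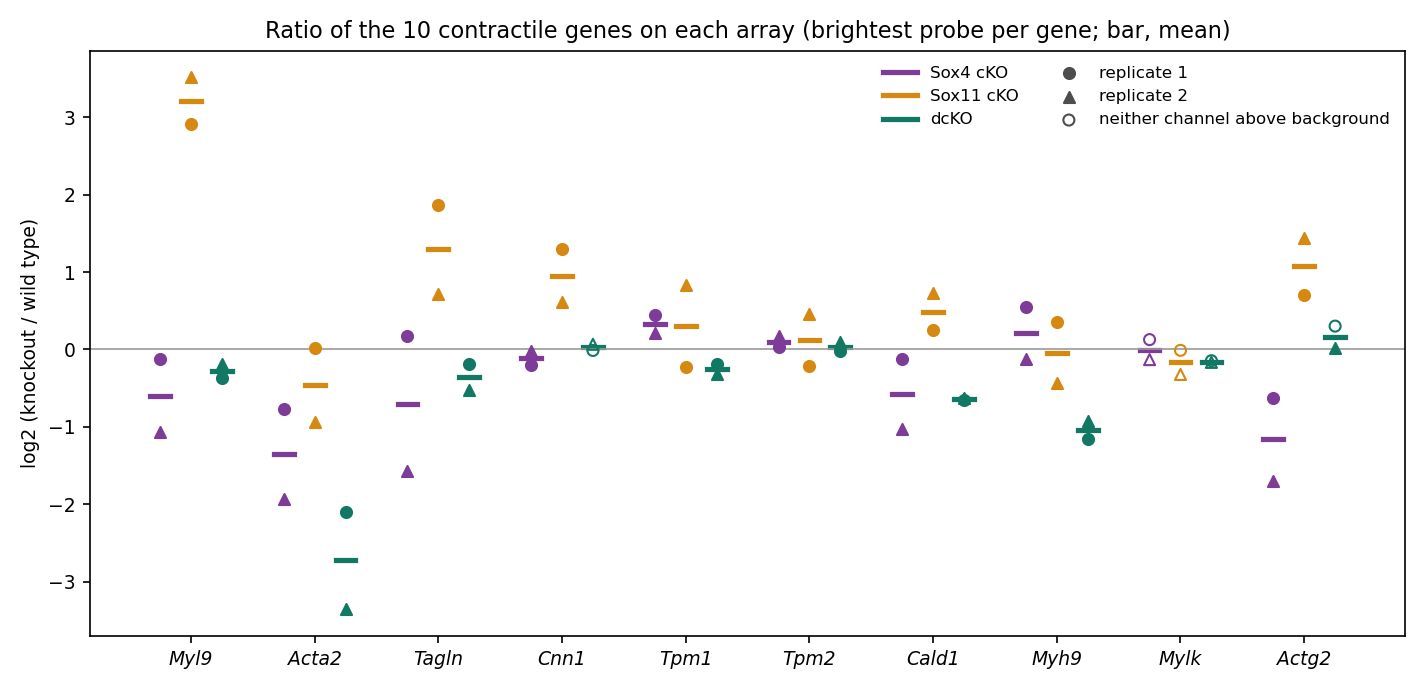
Log2 ratio of knockout over wild type (y axis) for the brightest probe of each of the 10 genes (x axis), coloured by genotype, with circles for replicate 1, triangles for replicate 2, bars for the mean and open symbols where neither channel was well above background. *Myl9* at 2.92 and 3.52 in Sox11 cKO and *Acta2* at -2.10 and -3.36 in dcKO lie farthest from 0.

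Over the whole group, *Myl9* was the 1 member probe of 16 called in Sox11 cKO, and it was the gene chosen by that value, against 0.0862% of all probes called there. In dcKO 1 of 16 was called, *Acta2*, against 0.756% of all probes, while for Sox4 cKO limma called 0 of 16 against 0.14% of all probes. Leaving out *Myl9*, and *Mylk* and in dcKO *Cnn1* as not measured, the median change was 0.40 over 8 genes in Sox11 cKO, -0.35 over 8 in Sox4 cKO and -0.35 over 7 in dcKO, where that of all probes was within 0.0035 of 0. By fitted sign, 6 of these genes were higher and 2 lower in Sox11 cKO, 3 higher and 5 lower in Sox4 cKO, and 2 higher and 5 lower in dcKO. Between genotypes, 1 of the 15 probes of members other than *Myl9* was called for dcKO minus Sox11 cKO, *Acta2*, against 0.449% of all probes. Limma called 0 of 16 for dcKO minus Sox4 cKO against 0.562% of all probes, and 0 of 15 for Sox4 cKO minus Sox11 cKO against 0.0108%. Without *Myl9*, an unadjusted p below 0.05 was found for 6 of 15 member probes in Sox4 cKO, 6 in Sox11 cKO and 5 in dcKO. The shares were 7.4%, 6.84% and 13% of all probes, and 10.5%, 10.7% and 19.8% of named genes. In the differences it was found for 4 (dcKO minus Sox4 cKO), 11 (dcKO minus Sox11 cKO) and 7 (Sox4 cKO minus Sox11 cKO). There the shares were 12.1%, 10.3% and 6.35% of all probes, and 17.6%, 16.2% and 9.5% of named genes. Several of the member probes read the same gene. These comparisons share the arrays they are built from.

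*Myl9*, *Acta2* and *Tagln* varied strongly between wild-type RNAs that had the same label. Wild-type *Acta2* ran from 8.35 to 13.29 over the 6 arrays and wild-type *Tagln* from 6.13 to 10.61. Ranges of 5.70 for *Myl9*, 4.94 for *Acta2* and 4.49 for *Tagln* were wider than those of 99.7%, 99.5% and 99.3% of the 10691 genes measured in all 6 wild types, whose median range was 0.88. The other measured members varied less, with ranges of 1.96 for *Cald1*, 1.41 for *Tpm1*, 1.23 for *Myh9* and 0.97 for *Tpm2*, wider than those of 91.9%, 81.6%, 74.7% and 58.1% of genes. The array of Sox4 cKO replicate 2 held the highest wild type for all 7 members measured on every array, where 17.4% of all genes had their highest wild type on that array. Without scaling the arrays to each other it held the highest for 4 of the 7, *Myl9*, *Acta2*, *Tagln* and *Cald1*, and with the scanner's processed signals for 5 of the 7. On that array wild-type *Myl9* was 4.17, *Acta2* 3.71 and *Tagln* 3.64 above the median of the other 5 wild types, and the Sox4 cKO RNA beside it was also above that median, by 3.10, 1.78 and 2.07. Knockout and wild type of this array thus stood apart together. Without it, the Sox4 cKO change of *Myl9* was 0.07 (limma adjusted p = 1) and that of *Acta2* was -1.33 (limma adjusted p = 0.548).

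**Figure D3:**
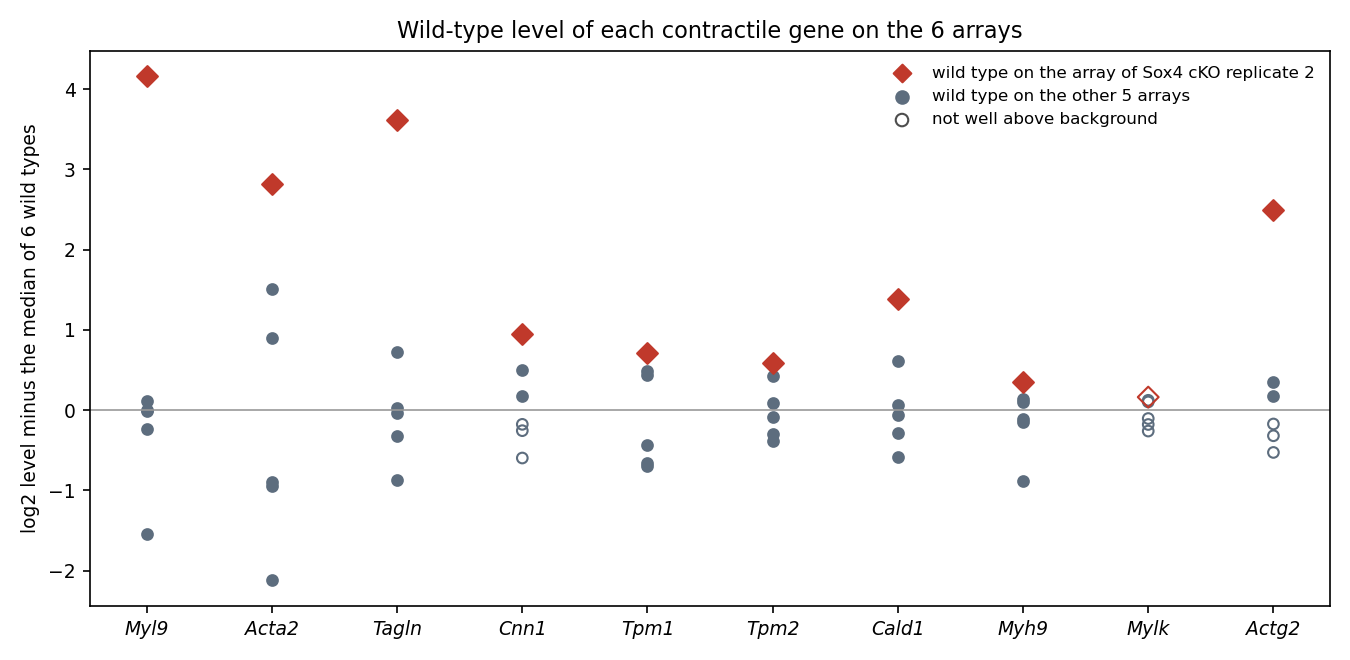
Wild-type level of each of the 10 genes (x axis) on each array, as log2 units above or below the median of the 6 wild types (y axis), with the array of Sox4 cKO replicate 2 as red diamonds, the other 5 arrays as grey circles and open symbols where the signal was not well above background. Wild-type *Myl9*, *Tagln* and *Actg2* on the array of Sox4 cKO replicate 2 stand clear of the other 5 arrays, *Acta2* is spread over all 6, and the tropomyosins and *Myh9* are close together.

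The genes whose ratios over the 6 arrays, with the dye effect removed, ran most like those of *Myl9* were ranked by Pearson correlation among 1627 measured genes with ratios spanning at least 1.5. They were *Hsd17b11* (r = 0.990), *Slc18b1* (r = 0.988), *Cul7* (r = 0.983), *Shroom1* (r = 0.972) and *Tagln* (r = 0.966). *Tagln* was the only member among these 5. Likeness in shape was not likeness in size, because *Hsd17b11* reached 1.40 and 2.46 in Sox11 cKO and *Cul7* 0.03 and 1.00. Of the other members, *Cald1* had r = 0.942, *Acta2* 0.742 and *Myh9* 0.24. Outside the compared set, for too small a span or too dim a signal, *Cnn1* had 0.853, *Actg2* 0.841, *Tpm1* 0.372 and *Tpm2* 0.305. These values rest on 6 arrays of which 2 carry the value *Myl9* was chosen by, and are a description.

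Beyond the members, 63 further genes of the contractile, small GTPase and SRF pathways were read through their brightest probes. None was called higher in any genotype. In Sox11 cKO limma called 0 of 63, against 0.178% of named genes, and the median change was 0.02. There 10 of 63 had an unadjusted p below 0.05, against 10.7% of named genes. Such p-values were found for 25 of 63 in dcKO, against 19.8%, and for 7 of 63 in Sox4 cKO, against 10.5%. In dcKO 2 of 63 were called, *Rhoc* and *Csrp2*, both lower, against 1.39% of the 21368 named genes read the same way. In Sox4 cKO 1 was called, *Rhoc*, also lower, against 0.159%. The medians were -0.16 and -0.04. *Rhoc*, a small GTPase that drives actomyosin contraction, had ratios of -2.48 and -3.81 in dcKO, a change of -3.15 ± 0.21 (limma adjusted p = 0.00125). In Sox4 cKO its ratios were -1.21 and -2.65, a change of -1.93 ± 0.21 (limma adjusted p = 0.0326). A second, dimmer *Rhoc* probe was at -2.02 in dcKO (limma adjusted p = 0.00287) and at -1.22 in Sox4 cKO (limma adjusted p = 0.0564), where it met neither threshold. In Sox11 cKO they were -0.38 and -0.74 (limma adjusted p = 0.631). The dcKO change of *Rhoc* minus that of Sox11 cKO was -2.58 ± 0.30 log2 units (limma adjusted p = 0.0224), the 1 call among the 63 against 0.786% of named genes, and was lost without dcKO replicate 1 (0.0987) or dcKO replicate 2 (0.188). The Sox4 cKO call of *Rhoc* was lost without either Sox4 cKO array (limma adjusted p = 0.173 and 0.582) or either dcKO array (0.0501 for each), and its dcKO call without dcKO replicate 2 (0.0536).

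Of 23 thin filament and actin crosslinking genes, 1 was called in dcKO. *Csrp2*, a muscle LIM protein, had ratios of -1.81 and -1.62 in dcKO (change -1.71 ± 0.30, limma adjusted p = 0.0362) and of -0.71 and -2.52 in Sox11 cKO (limma adjusted p = 0.16). Its dcKO call was lost without either dcKO array (limma adjusted p = 0.418 and 0.0902) and without either Sox4 cKO array (0.065 for each). In the list of thin filament and actin crosslinking proteins, 15 of 23 genes were below wild type on both dcKO arrays and 4 above on both, where 31.8% of all named genes, and 37.4% of those above background, were below on both. The list median was -0.50, with a range of -1.05 to -0.46 over the scalings tried. *Flna*, which encodes an actin crosslinker, was at -1.10 ± 0.18 (limma adjusted p = 0.0283), short of the fold threshold. The focal adhesion genes *Zyx* and *Pdlim1* were at -1.22 ± 0.22 and -1.03 ± 0.15 (limma adjusted p = 0.0397 and 0.0202), below the adjusted p threshold but short of the fold threshold. The brightest probe of the cytoplasmic actin *Actg1* was at -1.48 ± 0.21 (limma adjusted p = 0.0176), also short of the fold threshold, and its other 4 probes were at -0.67 to -1.46, of which 1 was below the adjusted p threshold. *Actb*, the other cytoplasmic actin, was at -0.84 ± 0.24 (limma adjusted p = 0.163) and met neither threshold. Of the small GTPase regulators, *Arhgef2*, a RhoA activator, was at -1.09 ± 0.18 and *Arhgap29*, a RhoA inhibitor, at 0.88 ± 0.15 in dcKO (limma adjusted p = 0.033 and 0.034), both short of the fold threshold and not called. *Cdc42bpa* was at 0.04 ± 0.20 in dcKO.

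Neither close paralog of *Myl9* was called, and their difference from *Myl9* was not tested. *Myl12a* ratios in Sox11 cKO were -0.27 and 0.21. *Myl12b* ratios were 0.47 and 1.12 there (limma adjusted p = 0.209) and 1.04 and 1.33 in Sox4 cKO, a fitted value of 1.19 ± 0.16 that met neither threshold (limma adjusted p = 0.0584). The other non-muscle heavy chains, *Myh10* and *Myh14*, were at -0.42 ± 0.15 and -0.08 ± 0.29 in Sox11 cKO (limma adjusted p = 0.581 and 0.994). In the dcKO they were at 0.00 ± 0.15 and 0.56 ± 0.29.

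Other SRF-linked genes gave no common direction in Sox11 cKO, with a median of 0.02 over 11 genes. *Ccn1* had ratios of -0.06 and 3.30, so 1 replicate carried its whole change (limma adjusted p = 0.656), while its relative *Ccn2* was lower on both arrays, at -1.42 and -1.60 (limma adjusted p = 0.134). *Acta1*, skeletal actin, had ratios of 1.07 and 1.09 in Sox11 cKO but of 1.20 and -1.69 in Sox4 cKO (limma adjusted p = 0.643 and 0.944). *Vcl* was at 0.49 ± 0.20 in Sox11 cKO (limma adjusted p = 0.716). The immediate early genes *Egr1* and *Fos* were at 0.21 and 0.56 in Sox11 cKO and at -0.88 and 0.64 in dcKO (limma adjusted p = 0.0885 and 0.383 in dcKO). Transcripts of *Srf* itself were at 0.11 ± 0.16 in Sox11 cKO (limma adjusted p = 0.985).

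**Figure D4:**
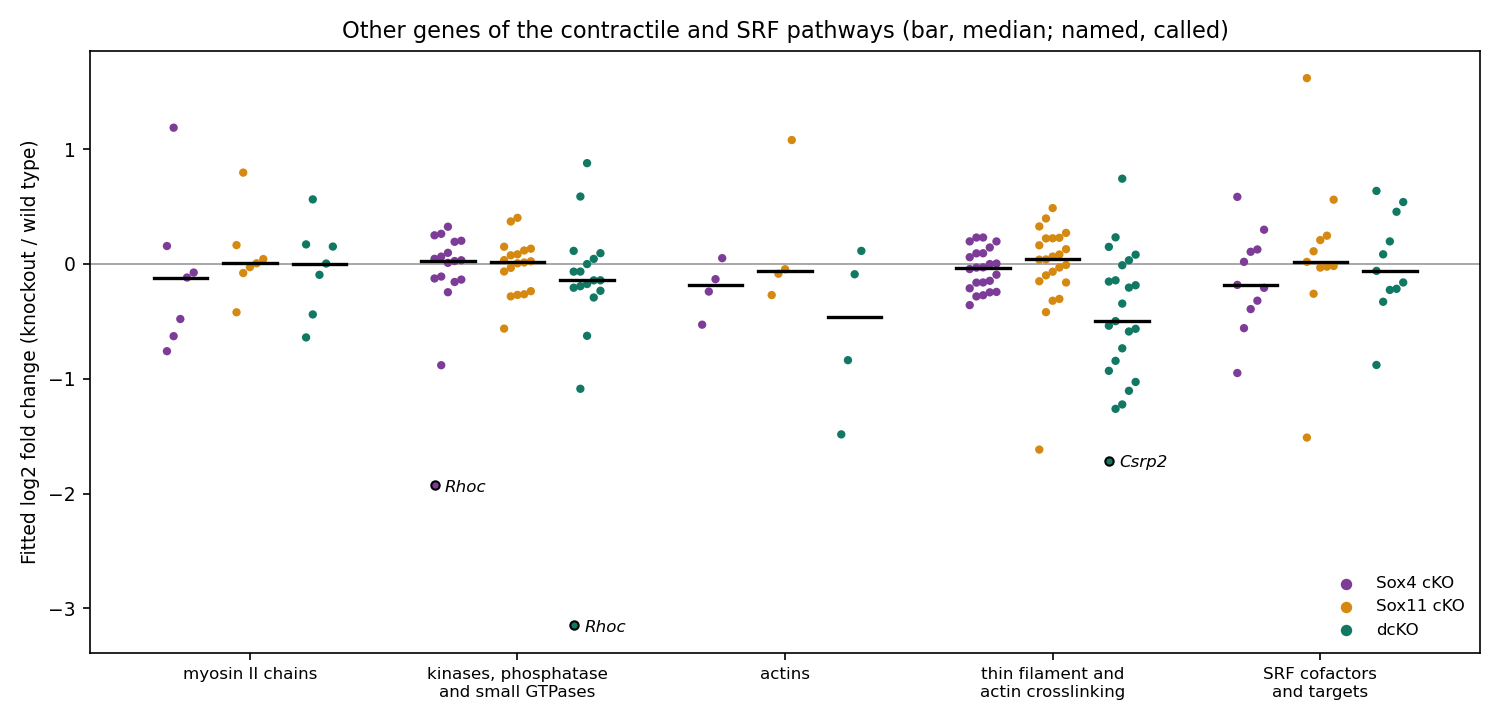
Fitted log2 fold change (y axis) of 63 further genes in 5 lists (x axis) for Sox4 cKO, Sox11 cKO and dcKO, with 1 point a gene, black bars for the median of each list and called genes named. *Rhoc* lies at -1.93 in Sox4 cKO and -3.15 in dcKO, *Csrp2* at -1.71 in dcKO, and the thin filament list has its median at -0.50 in dcKO.

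Markers of cells other than keratinocytes were read because smooth muscle, pericytes and fibroblasts, the feeders included, express many contractile genes. All 10 keratinocyte markers were well above background in every channel, their summed level being 17.63 to 18.60 in log2 units. Both ends of that range lay on the array of Sox11 cKO replicate 2, where knockout RNA was at 17.63 and wild-type RNA at 18.60, and where *Myl9* in knockout RNA was highest among the knockouts. There *Krt5* had a log2 ratio of -1.44 and *Col17a1* of -1.62, which are values of that 1 array. The fitted Sox11 cKO changes of the 10 markers ran from -0.94 to 0.31. Of the 10 keratinocyte markers, 2 were above wild type on both Sox11 cKO arrays, 5 were below on both and none was called. Their median Sox11 cKO change was -0.18. On Sox11 cKO replicate 1, where *Myl9* was also above wild type, the sum was 18.17 in knockout and 17.75 in wild type. *Krt15* was called lower in Sox4 cKO, at -1.58 (limma adjusted p = 0.0245). Of 9 smooth-muscle and pericyte markers, 2 to 3 were above background in a channel, *Mcam* and *Notch3* in all 12 channels, while *Myh11*, *Des*, *Rgs5*, *Lmod1*, *Myocd* and *Synpo2* were above it in none. Their summed level was 13.68 and 12.53 in the 2 Sox11 cKO RNAs and 13.61 and 12.73 in the wild types beside them. Of 12 fibroblast markers, 1 to 3 were above background in a channel, with *Fbln2* in all 12 and *Col1a2* in 11, and *Col1a1*, *Col3a1*, *Pdgfrb*, *Lum*, *Postn*, *Thy1* and *Fap* in none. Their summed level was 14.50 and 13.96 in Sox11 cKO against 14.70 and 11.39 in its wild types, a gap on replicate 2 that was carried by *Fbln2*, whose log2 ratios were -0.20 and 2.74. On the array of Sox4 cKO replicate 2 the wild type, where *Myl9*, *Acta2* and *Tagln* were highest, had 1 fibroblast marker above background and a summed smooth-muscle level of 13.77, the highest of the 12 channels. The next highest sum was close, at 13.73 in the knockout RNA of dcKO replicate 1, where *Myl9* was at its lowest level, 6.63. Melanocyte markers above background numbered 2 to 4 of 7, their sum on the array of Sox11 cKO replicate 2 being 8.84 in knockout and 10.22 in wild type, and immune markers 2 to 3 of 6. The part of these marker signals in the contractile values was not tested.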

How the data were processed

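RNA of knockout and wild-type keratinocytes was hybridised to 6 2-colour Agilent arrays of 62976 spots, of which 3671 were controls. The deposited scanner files, per the file headers from Agilent Feature Extraction 11.0.1.1, gave median intensity and median background per spot and colour, and the scanner's own dye-normalised log10 ratio of its processed signals. A series-wide table from the authors held log2 ratios normalised with limma, whose direction was checked against the scanner values (r = 0.89 to 0.952).

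Intensities were corrected with normexp (offset 16), control spots and outlier-flagged spots were left out, arrays were loess-normalised and spots of a probe averaged, giving 55681 probes. Of these, 28331 carried a gene symbol. Channel levels were scaled between arrays with Aquantile. limma 3.58.1 in R 4.3.3 fitted 3 genotype effects and 1 dye term over the 6 arrays, with 2 residual and 5.37 prior degrees of freedom. The dye term is also the replicate block, since replicates 1 and 2 had opposite dyes, and same-numbered arrays of different genotypes deviated together (r = 0.316, 0.244 and 0.125). p-values were adjusted by Benjamini-Hochberg over all probes. The script was tested on simulated data.

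The gene of each probe was taken from its transcript accession, and the brightest probe led for each gene. Members and lists were chosen with earlier results of these data known. Named further genes were those called in a genotype, the 2 largest changes of each list in dcKO and in Sox11 cKO among genes above background, the *Myl9* paralogs *Myl12a* and *Myl12b*, the 5 genes most like *Myl9* and the next-largest Sox11 cKO rise. *Flna*, *Zyx*, *Pdlim1*, *Arhgap29* and *Srf* are outside this rule and were chosen after their values were seen, and a result under the rule is not reported here. Promoter words 1 letter off the CArG box were searched after the sequences had been seen. All arrays shared 1 slide and 1 scan, so no batch was tested. Alternatives changed the offset, signal, normalisation, dye term, samples, probe filter and source table, and left out each array in turn.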

Additional observations from a re-analysis of the deposited data

Results flagged for a closer look

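Among the 6 wild-type RNAs, that of the Sox4 cKO replicate 2 array stood apart for *Myl9*, with a level of 12.707, and for *Tagln*, with a level of 10.613. The gap to the next wild type was 0.71 of the whole range for *Myl9* and 0.644 for *Tagln*. Both were above the critical value that chance passes in about 1 in 20 groups for a gene taken alone. All 7 members measured in every wild type were examined on the same arrays, so that rate does not describe the whole search.

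For *Acta2* the dcKO change differed from those of both single knockouts by limma's test of the difference, by -1.3713 from Sox4 cKO (adjusted p = 0.0423) and by -2.2651 from Sox11 cKO (adjusted p = 0.0122). The first was under the fold threshold.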

How the results depend on the processing

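Of the recomputed values of single genes, 790 kept their direction and side of the threshold or moved by less than the replicate spread, 13 no longer passed, 16 newly passed, and none that was called reversed. With offset 50, member probes called were 0 in Sox11 cKO and 0 in the dcKO difference from it, where 0 of all probes were called as well. Further contractile genes called with that offset were 0 in Sox4 cKO and 1 in dcKO, where 3 and 78 of all probes were called. With the scanner's processed signals, which called 0 of all probes in any comparison, member calls were 0 in Sox11 cKO, 0 in dcKO and 0 between dcKO and Sox11 cKO, and the further genes gave 0 in Sox4 cKO and 0 in dcKO. With median centring, member calls were 2 in dcKO, 3 for dcKO minus Sox4 cKO, 4 between dcKO and Sox11 cKO and 1 between the single knockouts, and 8 further genes were called in dcKO. Calls over all probes rose too, to 720, 1118, 827 and 17 in these comparisons, from 421, 313, 250 and 6 in the main fit. Without the replicate block (no dye term), member calls were 1 for dcKO minus Sox11 cKO, and further genes 0 in Sox4 cKO and 1 in dcKO. There 88, 35 and 301 of all probes were called. With only the arrays of Sox11 cKO, member calls there were 0, and 0 of all probes were called. With the dye effect subtracted first, further genes called in Sox4 cKO were 0, where 36 of all probes were called. With only probes above background, further genes called were 0 in Sox4 cKO and 1 in dcKO, where 23 and 377 of the kept probes were called. With the authors' table, member calls for Sox4 cKO minus Sox11 cKO were 3 and further genes in Sox11 cKO 2, where 137 and 129 of all probes were called. Leaving out each array in turn left 1 array in its genotype. Calls then shifted over all probes as well as among members and further genes, and counts of calls in those fits are not given. Member counts that involve Sox11 cKO include *Myl9*, chosen by its value there. The cause of these shifts was not tested. The scalings of wild-type levels were added after seeing the data. Mean spot signals were not run, since the scanner files used here hold no such column. *Mylk* was limited by signal over background in every channel.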
